A study of Tachycineta bicolor with 30 samples.

Results

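The genes described here are the core circadian clock genes of the brain of the female tree swallow (Tachycineta bicolor), a songbird. They were found by the title of the best protein match of each transcript: 10 gene titles were looked up, and 9 had at least 1 matching transcript, among 12834 distinct titles on 19478 transcripts. The titles are those of PER2 (period circadian protein homolog 2), PER3 (period circadian protein homolog 3), CRY1 (cryptochrome-1) and CRY2 (cryptochrome-2). The others are CLOCK (circadian locomoter output cycles protein kaput), NPAS2 (neuronal PAS domain-containing protein 2), NR1D1 and NR1D2 (nuclear receptor subfamily 1 group D member 1 and nuclear receptor subfamily 1 group D member 2) and NFIL3 (nuclear factor interleukin-3-regulated protein). No row matched the title of ARNTL (BMAL1), the usual partner of CLOCK, which was not analysed here. PER3 had 4 matching transcripts, CLOCK had 3 and CRY1 had 2, and each gene is given by the transcript with the highest mean.

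RNA was sequenced from 3 brain regions of free-living wild females caught at nest boxes in the morning at 2 breeding stages. Incubating females (INC, 5 birds) had complete clutches, and females in territory establishment (TE, 4 birds) had enlarged ovaries with small follicles. The regions were the hypothalamus with the preoptic area (HYPO), the ventromedial telencephalon around nucleus taeniae (VmT) and the hindbrain (HB), with 5 INC and 4 TE libraries each. The female of 1 VmT TE library could not be settled from the labels. One of the birds they name for it is a TE female that the authors left out for low RNA quality in HYPO and HB. That library was used for its stage but, outside 1 alternative, not for comparisons within a female. The hour of capture of each bird is not given in the sources used here, and stage cannot be told apart from calendar date. Stage p-values within a region come from 1 fit of all 27 libraries, which share 1 estimate of the spread for each gene. Libraries that come from 1 female are not independent of each other, but that fit treats them so. Those p-values are thus not a measure of the spread between females in that region alone. A further test, on the mean of HYPO and HB of each female, uses 1 value for each bird.

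The vertebrate clock is a feedback loop of transcription. CLOCK, or its relative NPAS2, pairs with BMAL1 and switches on the period and cryptochrome genes, whose proteins then return to the nucleus and block that pair. A second loop runs through the REV-ERB receptors NR1D1 and NR1D2, which repress BMAL1, and NFIL3 represses genes that the PAR bZIP activators switch on. The messenger RNA of many of these genes cycles over the day in most tissues, so that the level in a sample taken at 1 time depends on the phase at which it was taken.

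Values are read counts that the authors divided by 1 size factor per library, called normalized counts below. They are not divided by transcript length, so levels are compared between libraries and never between genes. Whole reads recovered from these values, summed over the deposited transcripts, came to 6001315 to 13710385 a library (median 8308433). These sums are not the full sequencing depth, since the paper gives a higher average of mapped read pairs per sample. Summed normalized counts of 7 hindbrain markers were 857 to 1761 in HB, against at most 15.5 in HYPO and 3.71 in VmT. The 7 telencephalon markers summed to 1565 to 2761 in VmT, against 583 to 1164 in HYPO. The 4 hypothalamus markers measured (of 8) summed to 302 to 1144 in HYPO and to at most 88.2 in HB, but 1 VmT library, that of INC female 85899, reached 388, above the lowest HYPO library, where the VmT medians were 60.0 in INC and 57.4 in TE. The VmT stage and region calls of the 9 genes were the same without that library. Markers of thalamus and midbrain (7 of 11 measured) moved with stage in VmT: they summed to 937 to 1439 in INC and 402 to 1134 in TE. Their median sum was also higher in INC in HYPO (1455 against 1134) and in HB (269 against 202). The part of these markers in the stage values below was not tested. Markers of choroid plexus, blood and pituitary (5 of 6 measured) varied widely between libraries. They summed to 120 to 92997 in HB of INC and 201 to 758 in HB of TE. Over both stages they summed to 27.7 to 15133 in HYPO and 54.7 to 10137 in VmT. What such tissue adds to the values below was not tested.

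No clock gene passed the test between stages in any region. Of 9 genes, limma called 0 in HYPO, 0 in VmT and 0 in HB at an adjusted p of at most 0.05, where 0.514%, 3.53% and 0.00514% of 19473 transcripts were called. edgeR and DESeq2 on the recovered reads also called 0 in each region. At an unadjusted p under 0.05 the limma counts were 2 in HYPO (CRY1 and CLOCK), 3 in VmT (CRY1, CRY2 and NR1D1) and 0 in HB, beside 14.2%, 15.5% and 3.32% of all transcripts. On the mean of HYPO and HB of each female, 0 of 9 genes were called (0.0103% of all transcripts) and 2 had an unadjusted p under 0.05, CLOCK and NR1D2 (9.17% of all). The median log2 difference of the 9 genes, INC minus TE, was -0.12 in HYPO, -0.19 in VmT and -0.10 in HB, beside 0.01, -0.01 and -0.01 over all transcripts. Values of the stages did not overlap for 1 gene in HYPO (CLOCK), 1 in VmT (CRY1) and 0 in HB, beside 5.56%, 4.38% and 1.45% of all transcripts.

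The stage differences were also compared between regions. limma called 0 of 9 genes for VmT minus HYPO, VmT minus HB and HYPO minus HB, where 5.95%, 0.437% and 0% of all transcripts were called. At an unadjusted p under 0.05 the counts were 2 (CLOCK and NR1D1), 1 (NR1D1) and 0, beside 17.7%, 8.45% and 6.23%. edgeR called 0 in each, and DESeq2 called 1 for VmT minus HYPO, NR1D1. The share of all transcripts that DESeq2 called there is not given here.

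**Figure D1:**
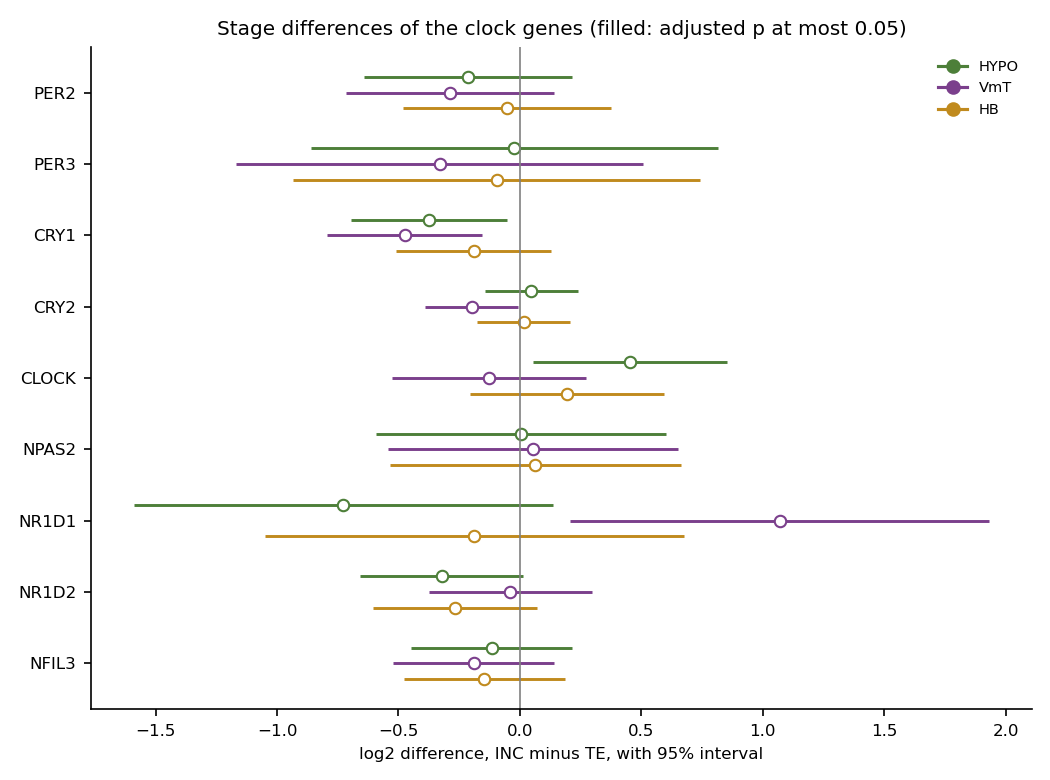
Log2 difference between stages (INC minus TE) of the 9 clock genes in HYPO, VmT and HB, with 95% intervals from limma; a filled point would mark an adjusted p of at most 0.05. Every point is open, and most intervals cross 0.

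Differences between regions were more common. VmT had the highest PER2, CRY1, CRY2, NPAS2 and NFIL3, and HB had the lowest PER2 and NPAS2. Between VmT and HB, 6 of 9 genes were called and all 6 were higher in VmT, beside 43.4% of all transcripts called and 17.6% called higher in VmT. Between HYPO and VmT, 5 of 9 were called and all were lower in HYPO (25.9% of all called, 11.7% lower in HYPO). Between HYPO and HB, 2 of 9 were called, both higher in HYPO (12.4% of all called, 5.33% higher in HYPO). edgeR and DESeq2 called the same genes in all 3 contrasts. Glial markers moved with region: 4 of 6 oligodendrocyte markers summed to 19288 to 37802 in HYPO, 9691 to 18872 in VmT and 34644 to 54419 in HB, and 7 astrocyte markers to 25625 to 32707, 21904 to 26682 and 29557 to 38345. Their part in the region differences was not tested. In bulk tissue, fewer cells of a type and less RNA per cell cannot be told apart. Leaving out 1 library lowered the HYPO and VmT count to 2 (without the VmT library of TE female 85674) or 3 (without the HYPO library of TE female 85689, 85691 or 85694, or the VmT library of unsettled female).

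**Figure D2:**
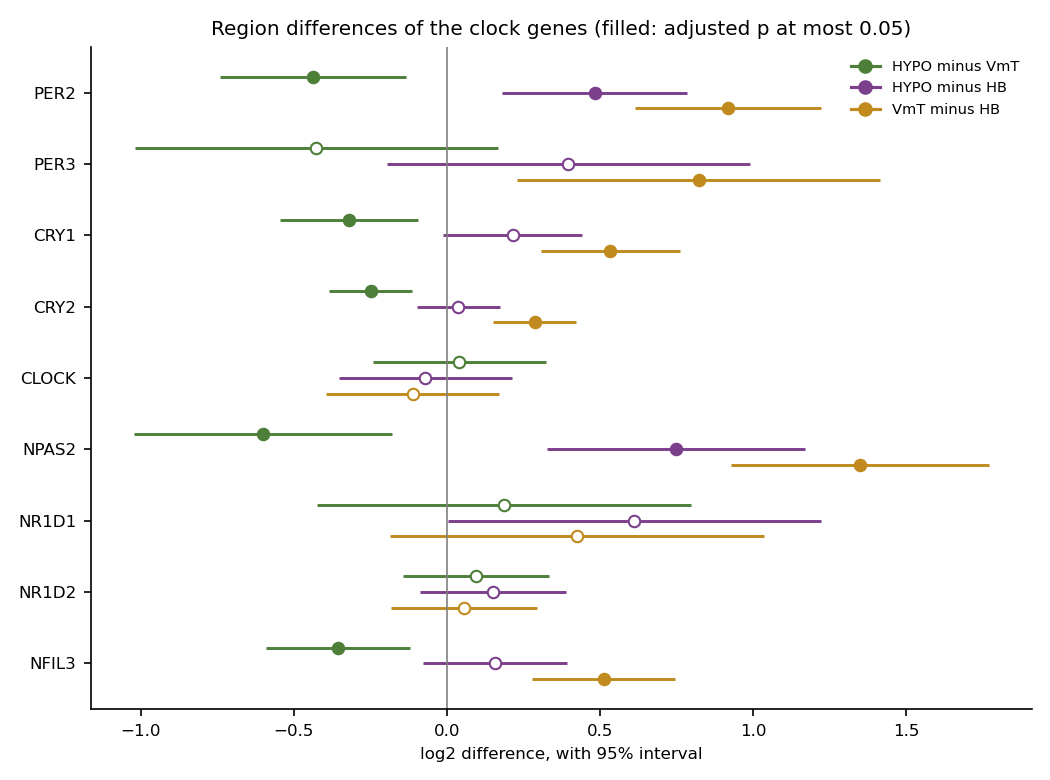
Log2 differences between regions of the 9 clock genes over both stages, with 95% intervals from limma; filled points have an adjusted p of at most 0.05. The VmT minus HB points of PER2, PER3, CRY1, CRY2, NPAS2 and NFIL3 are filled and above 0, and all points of CLOCK, NR1D1 and NR1D2 are open.

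Of the activators, CLOCK, given by its transcript with the highest mean, was the only clock gene whose HYPO values did not overlap between stages. In the order of females 85757, 85774, 85840, 85889 and 85899, it stood at 93.0, 63.6, 78.0, 83.6 and 71.0 in HYPO of INC females. In HYPO of TE females 85674, 85689, 85691 and 85694 it stood at 57.9, 49.1, 57.3 and 60.9. The lowest INC library was thus above the highest TE library. The means were 77.8 ± 11.3 in INC and 56.3 ± 5.03 in TE (SD, n = 5 and 4), a log2 difference of 0.45 (SE 0.20) with a limma adjusted p of 0.268, so the difference did not pass the test. In VmT CLOCK ran from 35.2 to 78.9 in INC and from 60.8 to 72.8 in TE, and in HB from 62.4 to 86.3 in INC and from 44.5 to 78.2 in TE, so the stages overlapped. Over females the difference was 0.32 (SE 0.13, limma adjusted p 0.475). Another CLOCK transcript had a near-equal level in HYPO, with a mean of 69.0 against 68.3, but its HYPO stages overlapped. There 2 of 5 INC libraries were above all TE libraries, with a stage difference of 0.41 (limma adjusted p 0.469). In VmT its stage difference was 0.14, against -0.13 for the transcript used. Its VmT minus HYPO difference of stage differences was -0.28 (limma p 0.421), against -0.58 (limma p 0.0447). CLOCK was even across regions, at 68.3 ± 14.2 in HYPO, 65.0 ± 12.7 in VmT and 70.9 ± 12.7 in HB (SD, n = 9 each), and no region contrast was called. A further CLOCK transcript, read 4 to 25 times a library, did differ: it was higher in HYPO than in VmT by 0.71 and lower in VmT than in HB, at -0.66 (limma adjusted p 0.0364 and 0.0334).

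NPAS2, the relative of CLOCK, had the largest VmT minus HB difference of the 9 genes. INC females, in the order above, had 76.1, 67.7, 64.5, 30.3 and 51.9 in HYPO, 95.5, 92.9, 112, 52.6 and 90.0 in VmT, and 42.8, 33.3, 44.5, 13.5 and 46.8 in HB. Female 85889 was the lowest INC bird in all 3 regions. TE females had 43.2, 52.6, 70.4 and 58.3 in HYPO and 29.1, 30.1, 41.3 and 28.3 in HB. In VmT, TE females 85674, 85689 and 85694 and the library of unsettled female had 95.2, 71.5, 71.2 and 97.8. VmT was above HB by 1.35 (SE 0.21, limma adjusted p 5.00e-06) and HYPO above HB by 0.75 (adjusted p 0.0151), while HYPO was below VmT, at -0.60 (adjusted p 0.0313). Within females HYPO exceeded HB in 9 of 9 and VmT exceeded HB in 8 of 8. The stage differences of NPAS2 were 0.01, 0.05 and 0.06 in HYPO, VmT and HB.

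PER2, a repressor that pairs with the cryptochromes, was highest in VmT and lowest in HB. In HYPO it stood at 1891, 2810, 2454, 3552 and 1944 in INC females and at 3836, 2644, 2187 and 2987 in TE females. In VmT it stood at 2638, 3481, 2768, 5024 and 2824 in INC and at 4830, 4295, 4056 and 2936 in TE, and in HB at 1466, 2073, 1938, 2653 and 1430 in INC and at 2335, 1735, 1615 and 2127 in TE. The stages overlapped in every region, while female 85889 was the highest INC bird and female 85674 the highest TE bird in all 3. Region means were 2701 ± 677 in HYPO, 3650 ± 928 in VmT and 1930 ± 410 in HB (SD, n = 9 each). VmT was above HB by 0.92 (SE 0.15, limma adjusted p 1.07e-05), HYPO above HB by 0.48 (adjusted p 0.0300), and HYPO below VmT, at -0.44 (adjusted p 0.0293). The call between HYPO and HB was lost without the HYPO library of INC female 85774 or 85889 or TE female 85674 (0.41, adjusted p 0.0815) or 85694, or the HB library of INC female 85757 or 85899 or TE female 85689 or 85691.

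PER3, a further period gene, varied widely between females. In HYPO it stood at 307, 814, 426, 930 and 440 in INC and at 990, 402, 354 and 615 in TE. In VmT it stood at 272, 1003, 817, 1090 and 462 in INC and at 1218, 853, 901 and 466 in TE, and in HB at 169, 623, 481, 645 and 295 in INC and at 544, 368, 328 and 486 in TE. The highest INC library was 3.03 times the lowest in HYPO, 4.01 times in VmT and 3.82 times in HB, always female 85889 over female 85757. Stages overlapped in every region, with differences of -0.02, -0.33 and -0.10 (SE 0.41 each). VmT was above HB by 0.82 (SE 0.29, limma adjusted p 0.0225). That call was lost without the HB library of INC female 85757 (0.67, adjusted p 0.0510) or the VmT library of TE female 85674 (0.73, adjusted p 0.0566). The PER3 transcripts of rank 2 and 3 by mean were also called for VmT minus HB, at 0.80 and 0.74 (limma adjusted p 0.0162 and 0.0384). The transcript of rank 4 was not, at 0.57 (adjusted p 0.0910). None of these was called between stages, and in HB their stage differences were 0.063, -0.0013 and 0.15.

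CRY1, a cryptochrome of the repressor complex, had the lowest stage p of the 9 genes. In VmT it stood at 627, 650, 395, 588 and 566 in INC females, against 920, 697, 747 and 749 in TE libraries. All 5 INC libraries were below all 4 TE libraries. The means were 565 ± 100 in INC and 778 ± 97.5 in TE, a log2 difference of -0.47 (SE 0.16, limma p 0.0052, adjusted p 0.0958), and the adjusted p ran from 0.0554 to 0.279 over the alternatives. In HYPO CRY1 stood at 513, 475, 358, 480 and 504 in INC and at 842, 497, 521 and 589 in TE, with a difference of -0.37 (SE 0.16, adjusted p 0.248) and overlapping stages. In HB it ran from 350 to 502 in INC and from 387 to 574 in TE, and over females the difference was -0.28 (SE 0.13, adjusted p 0.560). Between regions CRY1 was higher in VmT than in HB by 0.53 (SE 0.11, adjusted p 2.65e-04), and lower in HYPO than in VmT, at -0.32 (adjusted p 0.0327). The other CRY1 transcript, with few counts, went the other way in VmT, at 28.0 ± 8.86 in INC and 23.2 ± 6.69 in TE. Its stages overlapped in every region. The stage differences of that transcript were 0.26 in VmT (limma adjusted p 0.784), -0.53 in HYPO (adjusted p 0.497) and 0.17 in HB. In no region contrast was it called, with 0.038 for HYPO minus VmT (limma adjusted p 0.925) and 0.46 for VmT minus HB (adjusted p 0.103).

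CRY2, the other cryptochrome, varied little in HYPO and HB and more in VmT. It ran from 1293 to 1418 in INC and from 1173 to 1411 in TE in HYPO, from 1237 to 1854 in INC and from 1452 to 1800 in TE in VmT, and from 1153 to 1412 in INC and from 1203 to 1345 in TE in HB. The stages overlapped in each region. In VmT its stage difference was -0.20 (SE 0.09, limma p 0.0426, adjusted p 0.297). That difference was called in 1 of 39 alternatives, without the VmT library of INC female 85757, at -0.29 with an adjusted p of 0.0454. Over the alternatives the adjusted p ran up to 0.602. CRY2 was higher in VmT than in HB by 0.29 (SE 0.07, adjusted p 8.63e-04), and lower in HYPO than in VmT, at -0.25 (adjusted p 0.00583).

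**Figure D3:**
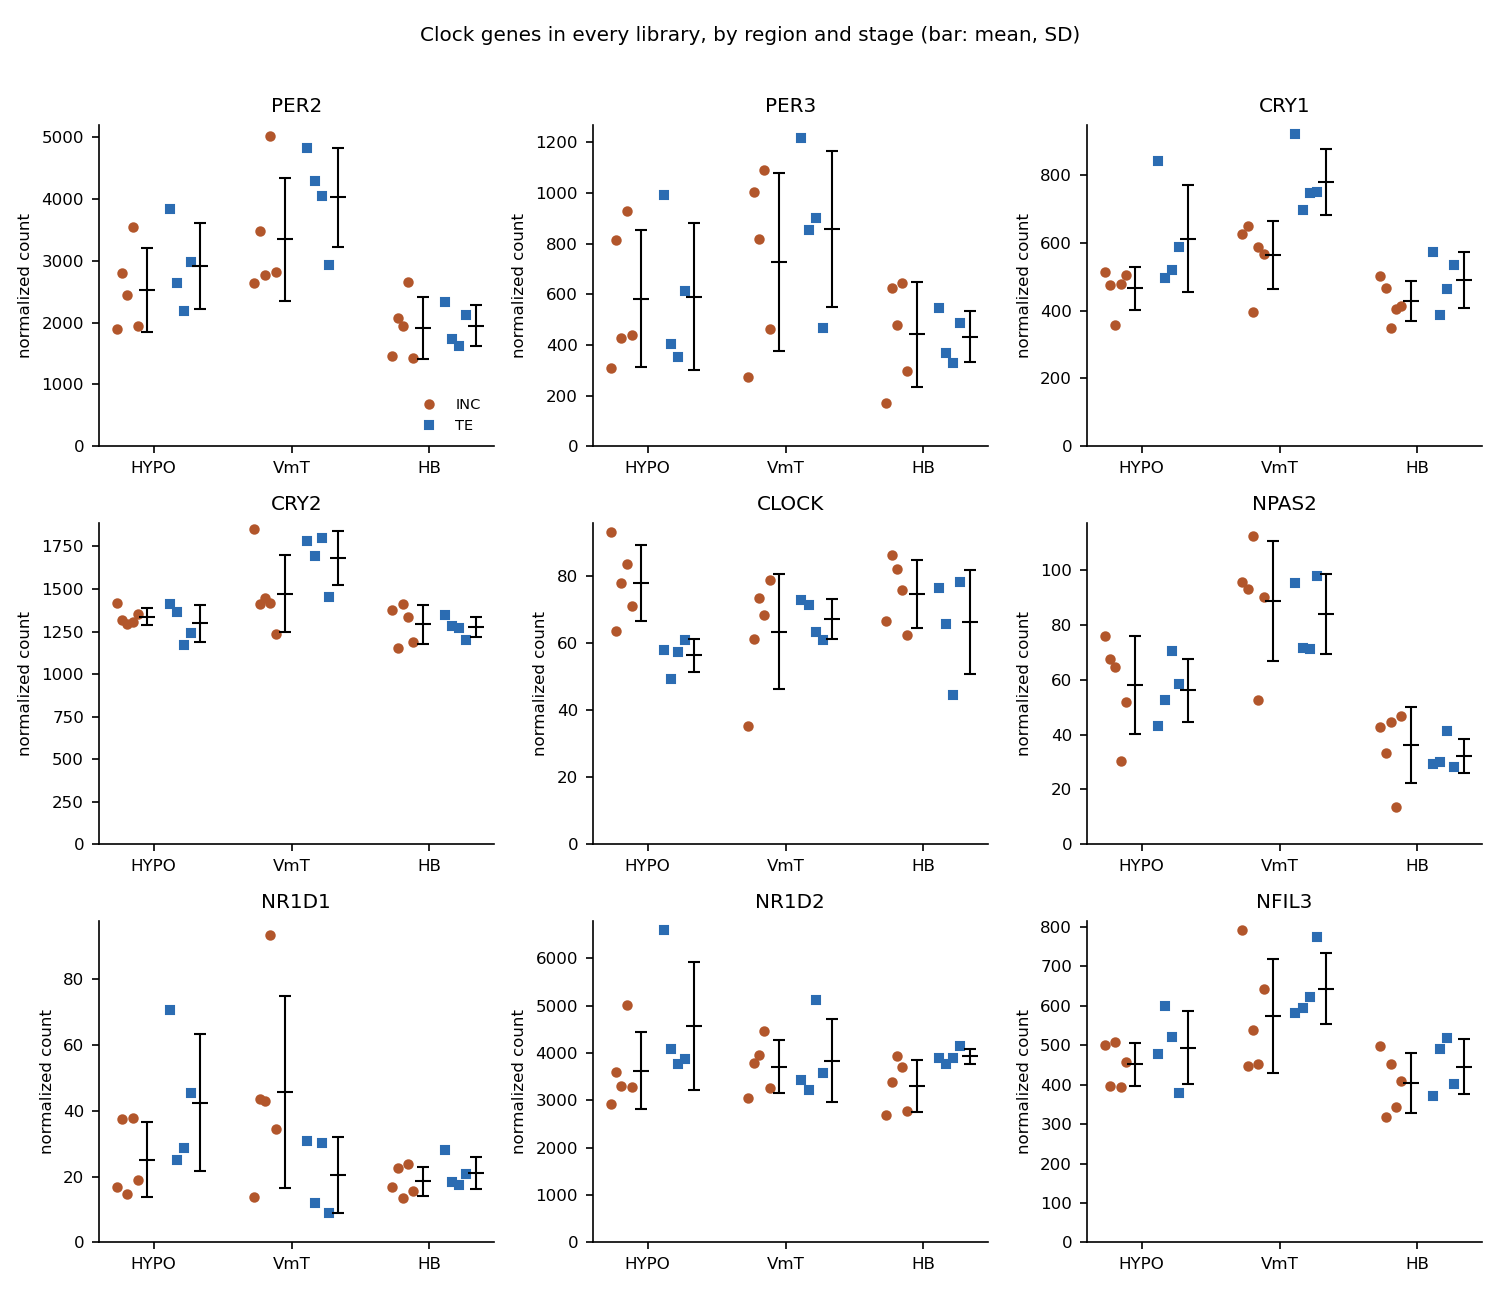
Normalized counts of the 9 clock genes in every library by region, with INC libraries as circles and TE libraries as squares; bars give the mean and SD of each group. All 5 INC libraries of CRY1 lie below the 4 TE libraries in VmT, and all 5 INC libraries of CLOCK lie above the 4 TE libraries in HYPO.

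NR1D1, the REV-ERB alpha receptor, was read with few counts, from 12 to 119 reads a library. In HYPO it stood at 16.9, 37.4, 14.6, 37.6 and 19.0 in INC females and at 70.7, 25.1, 28.7 and 45.3 in TE females. In VmT it stood at 13.9, 43.5, 43.0, 93.3 and 34.5 in INC and at 30.8, 12.1, 30.2 and 8.78 in TE. In HYPO 3 of 5 INC libraries were below all TE libraries, and in VmT 4 of 5 INC libraries were above all TE libraries, with overlap in both. The stage difference was -0.73 (SE 0.42, limma adjusted p 0.467) in HYPO, 1.07 (SE 0.42, adjusted p 0.185) in VmT and -0.19 in HB. The VmT difference minus the HYPO difference was 1.80 (SE 0.60, limma p 0.0054, adjusted p 0.0745). A fit blocked on female gave 1.78 with an adjusted p of 0.0252, and DESeq2 gave 1.93 with an adjusted p of 0.0334. Without the VmT library of INC female 85757 the difference was 2.15 (adjusted p 0.0136), and the VmT stage difference itself was 1.42 (adjusted p 0.0368). The VmT minus HYPO difference was also called without the VmT library of TE female 85674 (2.05, adjusted p 0.0455) or 85694 (2.04, adjusted p 0.0438). Only 6 of 38 alternatives called it, and over the 38 the adjusted p ran from 0.0136 to 0.173.

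NR1D2, the REV-ERB beta receptor, ran in HYPO from 2924 to 5017 in INC and from 3761 to 6595 in TE. In VmT it ran from 3059 to 4465 in INC and from 3221 to 5128 in TE, and in HB from 2701 to 3940 in INC and from 3771 to 4158 in TE. In HYPO and in HB 4 of 5 INC libraries were below all TE libraries. The differences were -0.32 in HYPO, -0.04 in VmT and -0.27 in HB, and -0.29 over females (SE 0.12, limma p 0.0313, adjusted p 0.494). No region contrast was called, with differences of 0.10, 0.15 and 0.06 for HYPO minus VmT, HYPO minus HB and VmT minus HB.

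NFIL3, a bZIP repressor, ran in VmT from 447 to 792 in INC and from 582 to 775 in TE, in HYPO from 394 to 508 in INC and from 378 to 599 in TE, and in HB from 319 to 499 in INC and from 373 to 519 in TE. All stages overlapped, and the differences were -0.12, -0.19 and -0.15 in HYPO, VmT and HB. It was higher in VmT than in HB by 0.51 (SE 0.11, limma adjusted p 6.11e-04), and lower in HYPO than in VmT, at -0.36 (adjusted p 0.0218).

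Because the regions came from the same birds, the clock genes were also compared within females. Sign flips of the difference within each female, added after the data were seen and adjusted over all transcripts, called PER2, PER3, CRY1, CRY2, NPAS2 and NFIL3 between VmT and HB (exact p 0.0078, the smallest 8 females allow, adjusted p 0.0284, 34.8% of all called, 15.4% higher in VmT). Each of the 6 was higher in VmT in 8 of 8 females. Between HYPO and HB they called PER2, CRY1 and NPAS2, higher in HYPO in 9 of 9 females (exact p 0.0039, the smallest 9 females allow, adjusted p 0.0341), and NR1D1, higher in 8 of 9 (adjusted p 0.0490, 16% of all called, 6.35% higher in HYPO). Between HYPO and VmT this test called 0 of 9 genes and 0 of all transcripts, since its smallest exact p of 0.0078 gives an adjusted p of 0.0555. PER2, CRY1 and NPAS2 were lower in HYPO in 8 of 8 females.

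The period genes and NR1D1 deviated together in HYPO and HB of the same female. After the mean of its region and stage was taken from each library, the HYPO and HB deviations of PER2 over 9 females had a Pearson r of 0.97 (exact permutation p 6.9e-04, Spearman rho 0.93). NR1D1 had an r of 0.96 (exact p 0.0024, rho 0.87) and PER3 an r of 0.85 (exact p 0.0045, rho 0.82). CRY1 had an r of 0.82 (exact p 0.012, rho 0.78) and NFIL3 an r of 0.77 (exact p 0.023, rho 0.70). Without the 2 females farthest from the median in HYPO, r was 0.96 for PER2, 0.92 for NR1D1, 0.85 for PER3, 0.73 for CRY1 and 0.91 for NFIL3. NPAS2 had an r of 0.83 (exact p 0.056, rho 0.47), which rests on females 85889 and 85674, since r was 0.26 without them.

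These 5 of 9 genes had an exact p of at most 0.05, beside 12.8% of 19453 transcripts, and the median r over all transcripts was 0.29. The same 5 passed a Benjamini-Hochberg adjustment over the 9 relations, but on ranks 4 did, and NFIL3 did not (exact p of rho 0.0604, adjusted p 0.109). Adjusted over all transcripts the p-values were 0.169 for PER2, 0.177 for NR1D1 and 0.199 for PER3, and no transcript of any kind passed, with 2880 permutations behind each test. The r of PER2 was above that of 99.9% of transcripts, that of NR1D1 above 99.7% and that of PER3 above 95.9%. NR1D2 (r = 0.35), CRY2 (r = 0.25) and CLOCK (r = -0.12) showed no such relation at this number of females (exact p 0.402, 0.426 and 0.726). Leaving out 1 female left 2 to 5 genes past the adjustment over 9: 2 without 85774, and 3 without 85691, 85757 or 85840.

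**Figure D4:**
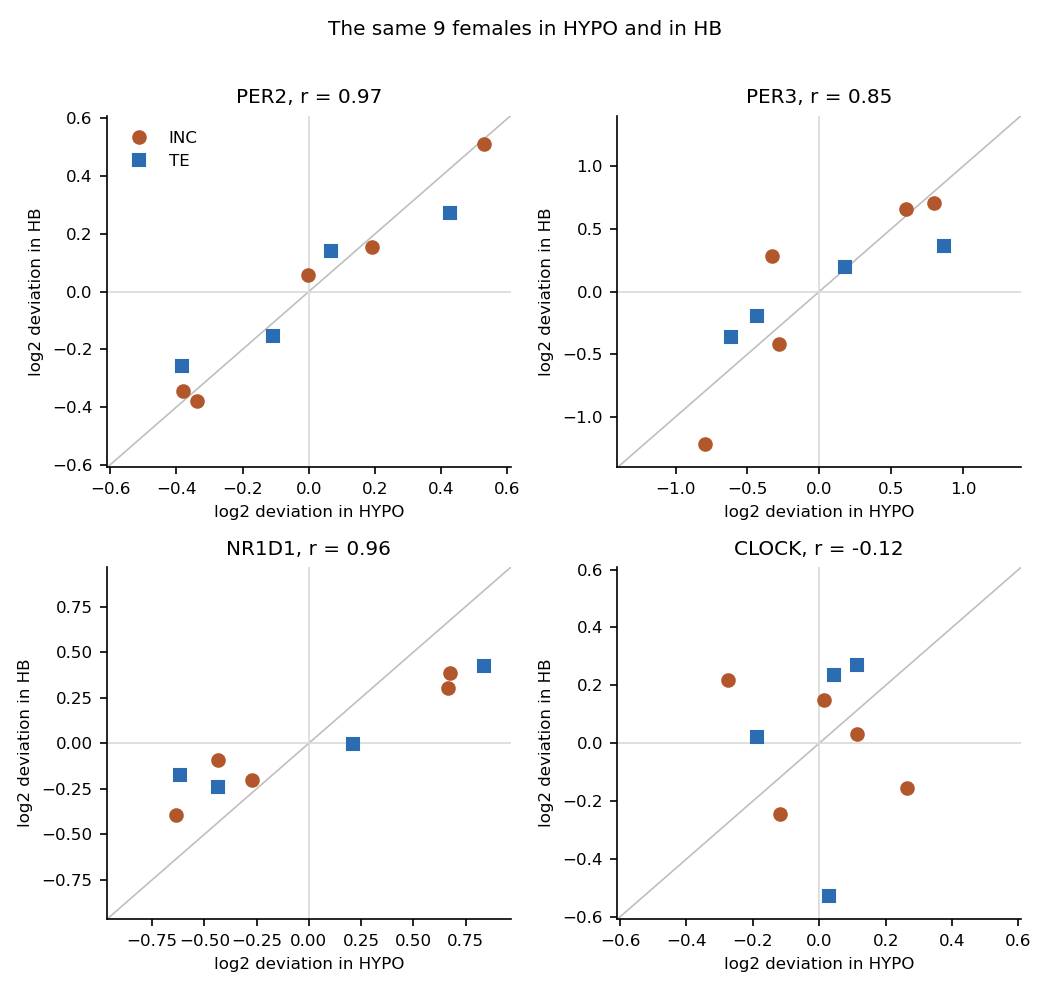
Deviation of each of the 9 females from its stage mean in HYPO (x axis, log2) and in HB (y axis, log2) for PER2, PER3, NR1D1 and CLOCK; the grey diagonal marks equal deviations. Points of PER2 lie near the diagonal (r = 0.97), those of NR1D1 rise together with a flatter slope (r = 0.96), and those of CLOCK do not line up (r = -0.12).

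VmT could be set beside the other regions in 8 females. Between VmT and HB the r was 0.99 for PER3 (exact p 0.0014, rho 1), 0.84 for PER2 (exact p 0.021, rho 0.79), 0.80 for CRY1 (exact p 0.014, rho 0.81) and 0.73 for NR1D2 (exact p 0.013, rho 0.88). These 4 of 9 had an exact p of at most 0.05, beside 11.8% of all transcripts, and passed the adjustment over the 9 relations. On ranks PER3 and NR1D2 passed, and PER2 and CRY1 did not (adjusted p of rho 0.0975 each, exact permutation). Without the 2 farthest females r was 0.96 for PER3, 0.55 for PER2, 0.54 for CRY1 and 0.84 for NR1D2. Between VmT and HYPO, PER2 (r = 0.88), CRY1 (r = 0.86) and PER3 (r = 0.82) had an exact p of at most 0.05, at 0.0097, 0.025 and 0.018, beside 9.28% of all transcripts, and 0 of 9 passed the adjustment over the 9 relations. Their rho was 0.83, 0.83 and 0.76, and r without the 2 farthest females was 0.72, 0.67 and 0.68. NR1D1 had an r of 0.56 between VmT and HB (exact p 0.192, rho 0.76). Between VmT and HYPO its r was 0.71 (exact p 0.0764, rho 0.83). NFIL3 had an r of 0.77 between VmT and HB (exact p 0.0653) and 0.41 between VmT and HYPO (exact p 0.222).

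The birds that stood out differed by gene. On the mean of HYPO and HB, PER2 of INC female 85889 was 0.52 above its stage mean on the log2 scale and that of TE female 85674 was 0.35 above, while INC females 85757 and 85899 were both at -0.36 and TE female 85691 at -0.32. For PER3 the highest were 85889 (0.75), 85774 (0.63) and 85674 (0.62), and the lowest was 85757 (-1.01). NPAS2 had the opposite order for 85889, at -1.05. The signs of the HYPO and HB deviations were the same in 8 of 9 females for PER2, PER3 and NR1D1, in 9 of 9 for NFIL3 and in 5 of 9 for CLOCK.

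**Figure D5:**
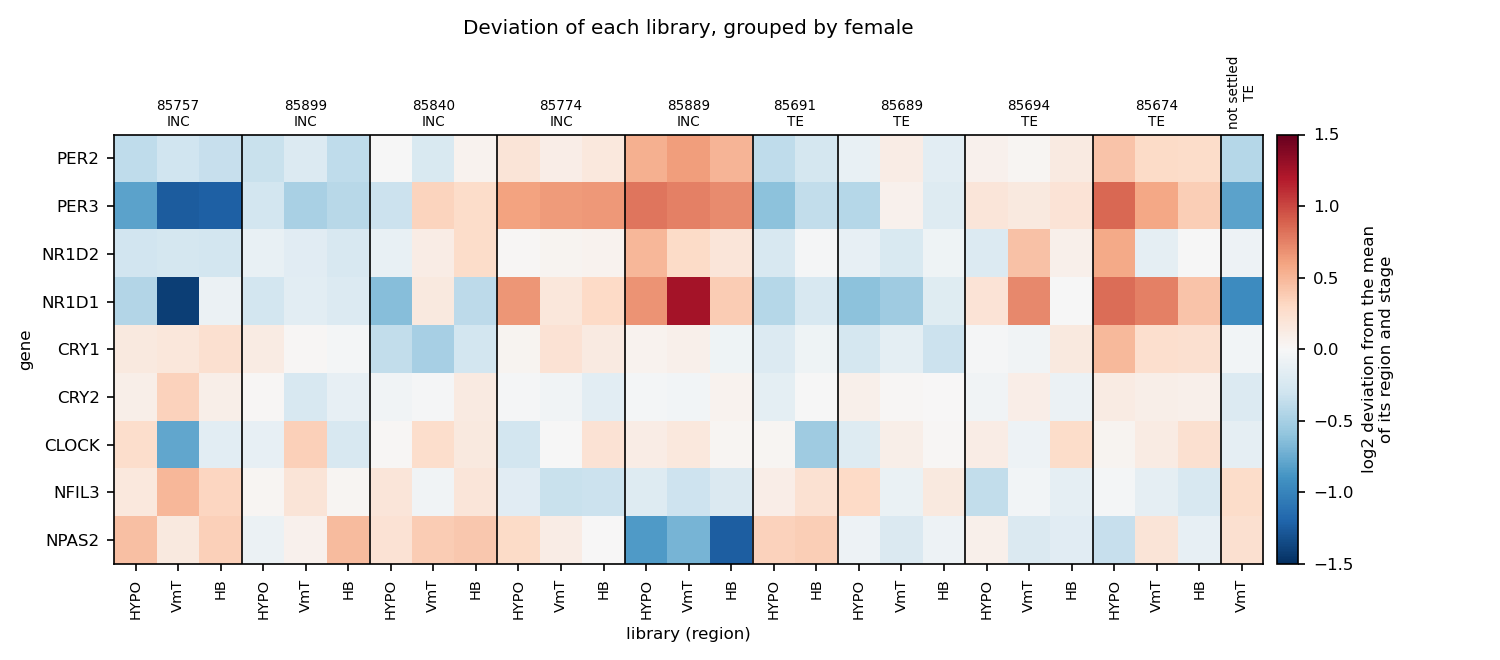
Log2 deviation of every library from the mean of its region and stage (colour) for the 9 clock genes (rows), with the libraries of a female side by side and females grouped by stage. PER2 and PER3 are above the mean in all 3 libraries of INC female 85889 and below it in all 3 of INC female 85757, and NPAS2 is below it in all 3 libraries of 85889.

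Pairs of clock genes were compared over the mean HYPO and HB deviation of the 9 females. Of 36 pairs, 21 had a positive r and 15 a negative r, 11 had an exact p of at most 0.05, and 4 passed a Benjamini-Hochberg adjustment over the 36 pairs. How often pairs of other transcripts reach such values was not computed. These counts therefore cannot be read as particular to clock genes. PER2 went with NR1D2 (r = 0.94, rho 0.95, exact p 0.0010, adjusted p 0.0375) and with PER3 (r = 0.93, rho 0.97, exact p 0.0031, adjusted p 0.0469). PER3 went with NR1D2 (r = 0.89, rho 0.90, exact p 0.0052, adjusted p 0.0469), and PER2 went against NPAS2 (r = -0.80, rho -0.82, exact p 0.0052, adjusted p 0.0469). Without the 2 farthest females these r were 0.88, 0.94, 0.79 and -0.62. On ranks 2 pairs passed, PER2 with NR1D2 and PER2 with PER3, while the other 2 had an adjusted exact p of 0.0781. The 4 calls were not stable: 0 pairs passed without any 1 of females 85674, 85689, 85691, 85757, 85889 or 85899 or in HB alone, and 7 passed without 85840. The adjustment covers only these pairs, and the genes were picked with results of these data known.

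Other genes of the clock pathway were read from a list of 30, of which 25 were measured. They include kinases that set the stability of the period proteins, the PAR bZIP and ROR factors, and melatonin receptors. limma called 0 of 25 between stages in each region, where 0.514%, 3.53% and 0.00514% of all transcripts were called in HYPO, VmT and HB. At an unadjusted p under 0.05 the limma counts were 5, 7 and 2, beside 14.2%, 15.5% and 3.32% of all transcripts. edgeR and DESeq2 each called 2 in VmT, ARNTL2 and CIPC, both lower in INC. The share of all transcripts that these tools called is not given here. CIPC, a repressor of CLOCK, had the lowest p in VmT, at 730 ± 113 in INC and 942 ± 104 in TE (SD, n = 5 and 4), a difference of -0.37 (limma adjusted p 0.0530). In HB the lowest p was that of SIRT1, a deacetylase, at 811 ± 63.9 in INC and 692 ± 32.6 in TE (0.23, adjusted p 1).

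limma and edgeR called 1 of 25 pathway genes for the VmT stage difference minus the HYPO stage difference, TIMELESS, beside 5.95% of all transcripts in limma, so the share was not above the background. DESeq2 called 2, TIMELESS and BTRC, in opposite directions (BTRC at -0.69 in limma, adjusted p 0.0650). The share of all transcripts that edgeR and DESeq2 called for this contrast is not given here. TIMELESS, chosen here after its values were seen, stood in HYPO at 31.8 ± 7.80 in INC and 61.4 ± 22.5 in TE, and in VmT at 66.7 ± 27.2 in INC and 38.7 ± 18.7 in TE. The difference of the 2 stage differences was 1.67 (SE 0.48, limma adjusted p 0.0352). It rests on few counts, with a mean of 44.2 over all libraries. Between regions, 8 of 25 pathway genes were called for HYPO minus VmT, 6 for HYPO minus HB and 17 for VmT minus HB, beside 25.9%, 12.4% and 43.4% of all transcripts. For HYPO minus VmT, 7 were lower and 1 was higher in HYPO (11.7% of all called lower). For HYPO minus HB, 5 were higher and 1 was lower in HYPO (5.33% called higher). For VmT minus HB, 13 were higher and 4 were lower in VmT (17.6% called higher). Those 4 were ARNTL2, CSNK1A1, GSK3B and BTRC. The genes named next were chosen after their values were seen. PROK2, the gene of a secreted peptide, was lower in HYPO than in VmT, at -2.20, and higher in VmT than in HB by 2.35. These differences rest on few counts, from 2.82 to 10.4 in HYPO, 16.5 to 61.3 in VmT and 2.01 to 12.7 in HB. The melatonin receptor gene MTNR1A was higher in HYPO than in HB by 1.43 and in VmT than in HB by 1.10. Its relative MTNR1B was called in all 3 contrasts, at -0.68 for HYPO minus VmT, 0.71 for HYPO minus HB and 1.39 for VmT minus HB. RORB, a ROR receptor, was higher in VmT than in HB by 0.97, and limma also called it for HYPO minus HB. Its means in INC and TE were 1220 and 1099 in HYPO, 1090 and 808 in VmT, and 473 and 462 in HB.

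By a rule of likeness, the transcripts nearest to CRY1 over the 27 libraries were named, with no test. Among 15780 annotated transcripts, levels of CRY1 followed those of YEATS domain-containing protein 2 (r = 0.84), SETDB2 (r = 0.82) and thyroid adenoma-associated protein (r = 0.82). For deviations from the 6 group means the nearest were cyclin N-terminal domain-containing protein 1 (r = 0.83), Fanconi anemia core complex-associated protein 24 (r = 0.81) and cytoplasmic glycerol-3-phosphate dehydrogenase (r = 0.79). The points share the females and the regions, so that they are not independent.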

How the data were processed

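The authors trimmed the reads (Trimmomatic 0.36), aligned them to a tree swallow transcriptome (Bowtie2 2.3.4.1, SAMtools 1.3.1), counted reads per transcript and deposited a signal for each library, the count divided by 1 size factor, as DESeq2 (1.16.1, R 3.4.1) gives. Whole reads were recovered by rounding. The check covered only low values, 4005 to 5063 a library, of which 100% lay within 0.1 of a whole number. Gene names are the titles of best protein matches, and 1 title (NR1D2) matched only after a quality prefix was dropped. 27 libraries had values and 3 of 30 labelled samples had no column. 1 TE female was left out by the authors for low RNA quality. The library of unsettled female has a column number that the labels give beside another, and the other is the number of this left-out bird. Whether that library came from the left-out bird was not settled.

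Main tests used limma 3.58.1 with a trend on log2(value + 1) in 1 fit of 6 groups, over 19473 transcripts with at least 1 in at least 4 libraries. p-values were adjusted by Benjamini-Hochberg over all of them and called at 0.05. edgeR 4.0.16 and DESeq2 1.42.0 ran on the recovered reads. Tests were checked on simulated data. Same-numbered libraries come from 1 bird, which pairs the regions (block correlation 0.205). Within-female p-values are exact permutations of females within stage (2880 for 9 females, 720 for 8). Planned adjustments over 10 genes and 45 pairs became 9 and 36, since 1 gene had no row. All members and gene lists, with the named-gene rule (every member; of the pathway list the lowest stage p per region; 3 transcripts nearest to CRY1; the pathway gene for HYPO is not reported here), were chosen with earlier results of these data known. The count of pairs at the unadjusted exact p was added after the adjusted count, the planned result, was known. Alternatives were the pseudocount, filter, normalization, trend, block, tool, summed rows, single regions and leaving out each library or female.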

Additional observations from a re-analysis of the deposited data

Results flagged for a closer look

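In 3 of 54 groups of 4 or 5 libraries 1 library lay far from the others by a gap test, and chance flags about 1 in 20 groups. CRY1 stood at 358 in HYPO of INC female 85840, against 475 to 513 in the other 4. NPAS2 stood at 41.3 in HB of TE female 85691, against 28.3 to 30.1 in the other 3. NR1D2 stood at 6595 in HYPO of TE female 85674, against 3761 to 4080 in the other 3.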

How the results depend on the processing

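Of 2585 values for single genes and pairs under an alternative, 2421 kept their direction and side of the threshold. That count takes in genes not called by the main test, so it does not measure how stable the calls are. For the called pairs, 12 values kept their call and 32 lost it. For likeness of HYPO and HB, 71 values were the same, 17 lost their call and 2 changed sign. Under quantile normalization HYPO minus VmT had 3 calls, and with no trend HYPO minus HB had 1. Sign flips within females gave 0 calls for HYPO minus VmT and 4 for HYPO minus HB, and -0.10 for NR1D1 in HYPO minus VmT. Likeness of VmT and HYPO gave 0 calls, and pairs in HB alone gave 0. With the female as a replicate block 1 difference of stage differences between VmT and HYPO was called (NR1D1), as with DESeq2 (1). The replicate block also gave a HYPO stage difference of 0.017 for PER3 and -0.0049 for NPAS2. Its value over females, the mean stage difference of all 3 regions, was -0.037 for CRY2 and 0.092 for NR1D1. The mean of all 3 regions of each female gave -0.046 for CRY2 and 0.052 for NR1D1, with the library of unsettled female placed by its column number. Both take in VmT, which the main value over females leaves out. The VmT stage difference was -0.20 for CRY2 and 1.07 for NR1D1. HB PER3 was 0.042 with edgeR and 0.041 with DESeq2, HB CRY2 was -0.0042 under quantile normalization, and CLOCK in HYPO minus VmT was -0.0051 under it and -0.015 with edgeR. No value that changed sign was called, and the cause was not tested.

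Leaving out 1 library at a time (1 female for values over females, likeness and pairs) gave, for stage in HYPO, -0.23 to 0.27 (PER3), -0.00092 to 0.088 (CRY2) and -0.11 to 0.22 (NPAS2). In VmT it gave -0.22 to 0.067 (CLOCK), -0.042 to 0.23 (NPAS2) and -0.12 to 0.11 (NR1D2), and in HB -0.18 to 0.042 (PER2), -0.27 to 0.21 (PER3), -0.017 to 0.056 (CRY2) and -0.055 to 0.37 (NPAS2). Over females it gave -0.25 to 0.19 (PER3) and -0.065 to 0.30 (NPAS2). HYPO minus VmT was -0.056 to 0.086 for CLOCK, VmT minus HB -0.018 to 0.094 for NR1D2, and the likeness of CLOCK -0.27 to 0.12. Counts of calls ran from 0 to 2 for VmT stage (2 without the VmT library of INC female 85757), 2 to 5 for HYPO minus VmT, 1 to 2 for HYPO minus HB, 0 to 1 for the difference of stage differences between VmT and HYPO, 2 to 5 for likeness and 0 to 7 for pairs.

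Without the 3 libraries of INC female 85757, an alternative chosen after seeing the data, 1 gene was called for VmT stage and 1 for the difference of stage differences between VmT and HYPO, both NR1D1. The stage differences that changed sign were then 0.18 (PER3) and -0.11 (NPAS2) in HYPO, 0.067 (CLOCK) and 0.027 (NR1D2) in VmT, and 0.033 (PER2), 0.21 (PER3), -0.0075 (CRY2) and -0.024 (NPAS2) in HB. CLOCK in HYPO minus VmT was -0.090. NR1D1, CLOCK, NPAS2, PROK2 and TIMELESS rest on few reads, which limits their precision.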
